A study of Mus musculus with 37 samples.

Results

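The integrins described here are 10 adhesion receptor subunits of macrophages, the alpha subunits Itga1, Itga4, Itga5, Itga6, Itgal, Itgam, Itgav and Itgax and the beta subunits Itgb1 and Itgb2. They were chosen by gene symbol in a table of 24016 genes, with the FPKM values of that table in view, so every level and ratio given for them counts as a value they were selected on and is a description with no test. All 10 were among the 10656 genes analyzed, those with at least 100 normalized reads in 1 or more libraries. Of the 16 other integrin genes in the table, 7 were.

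To examine how loss of the clock protein Bmal1 (encoded by Arntl) affects the response to TLR4 activation, macrophages were grown from the bone marrow (BMDMs) of WT and Arntl-/- mice, and their polyA RNA was sequenced 0, 6, 24 and 48 h after addition of Kdo2-lipid A (KLA), a TLR4 agonist. Both genotypes are labelled as strain C57BL/6J, from males aged 6 to 9 weeks, and the marrow cells of both were grown for 6 days with M-CSF, a growth factor that turns marrow precursors into macrophages. The Arntl-/- cells came from animals that lack the gene throughout the body. The labels describe WT mice from a commercial breeder. The study's text describes littermates in its results and names a commercial breeder in its methods, and neither source gives the number of animals. Each of the 8 conditions had 1 library, and the 4 times of a genotype may come from 1 culture, so no difference below has a replicate check. The 95% intervals given cover the counting of reads only.

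Integrins are cell surface receptors made of 1 alpha and 1 beta subunit, and they anchor cells to matrix proteins and to counter-receptors on other cells. The beta2 integrins, which pair Itgb2 with Itgal, Itgam or Itgax, are the leukocyte integrins, used for adhesion to endothelium, for uptake of complement-coated particles and for migration. The beta1 integrins pair Itgb1 with many alpha subunits and bind collagen, laminin and fibronectin, and Itgav joins several beta subunits to bind proteins with an RGD motif such as vitronectin and osteopontin.

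Of the 10 promoters, 4 are shown, those of the 3 members past 1.5-fold between the genotypes at any time (Itga1, Itga4 and Itgax) and of the member with the highest level (Itgam), each as the 250 bases before the start that the table gives, in mm9 coordinates and read 5′ to 3′ on the gene's strand. Capitals mark matches, on either strand, to GAGGAA (the core bound by PU.1, the factor that defines the macrophage lineage, or TTCCTC on the other strand), TGANTCA (an AP-1 site) or CACGTG (the E-box bound by Clock and Bmal1), and no match overlapped another in the promoters of the members. The first is Itga1 (minus strand, chr13:115892173-115892422), which has no match. The second is Itga4 (plus strand, chr2:79095333-79095582), also without one. Itgam (plus strand, chr7:135205904-135206153) has GAGGAA at 84 and 15 bases before the start. Itgax (plus strand, chr7:135272832-135273081) has TGANTCA at 74 bases before the start.
Itga1: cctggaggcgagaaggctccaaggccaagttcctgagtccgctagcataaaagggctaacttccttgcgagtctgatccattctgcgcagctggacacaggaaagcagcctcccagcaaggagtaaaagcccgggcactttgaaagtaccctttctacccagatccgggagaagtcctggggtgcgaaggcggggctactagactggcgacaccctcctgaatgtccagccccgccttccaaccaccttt
Itga4: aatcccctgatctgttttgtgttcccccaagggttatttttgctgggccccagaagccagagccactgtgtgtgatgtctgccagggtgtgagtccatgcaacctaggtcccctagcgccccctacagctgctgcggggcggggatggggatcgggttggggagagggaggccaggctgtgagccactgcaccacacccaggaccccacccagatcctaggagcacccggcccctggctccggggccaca
Itgam: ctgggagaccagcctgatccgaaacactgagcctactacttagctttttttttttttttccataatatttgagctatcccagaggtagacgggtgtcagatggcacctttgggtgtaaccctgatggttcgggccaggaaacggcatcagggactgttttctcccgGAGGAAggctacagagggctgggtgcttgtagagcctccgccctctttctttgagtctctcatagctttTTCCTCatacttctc
Itgax: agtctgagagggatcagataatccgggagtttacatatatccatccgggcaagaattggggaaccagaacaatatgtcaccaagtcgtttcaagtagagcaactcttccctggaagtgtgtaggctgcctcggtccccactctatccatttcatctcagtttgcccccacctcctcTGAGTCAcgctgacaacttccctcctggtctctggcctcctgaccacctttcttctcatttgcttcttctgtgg
GAGGAA was found in the promoters of 6 of the 10 members (Itga5, Itgal, Itgam, Itgav, Itgb1 and Itgb2) and in 22.8% of the 23954 promoters of the table. TGANTCA was found in 1 member, Itgax, and in 6.15% of all promoters. CACGTG was found in 1 member, Itgb2, at 105 bases before its start, and in 6.58% of all promoters. Over the 10656 genes analyzed the shares were 22.8% for GAGGAA, 4.13% for TGANTCA and 8.64% for CACGTG. These counts describe letters in a window and were not tested. For Itga6 the start used lies 41323 bases after that of the GENCODE vM1 annotation, whose promoter was not searched.

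The members lie on 6 chromosomes, and the 3 of them that join Itgb2 lie on chromosome 7. There Itgam (135206154 to 135262005 of mm9 in the transcript of the table) lies before Itgax (135273082 to 135294171). GENCODE vM1, which holds more transcripts, ends Itgam at 135271674 and starts Itgax at 135273061. Itgal (134439774 to 134478651) lies 727502 bases before Itgam. Itga1 (chromosome 13, 115748289 to 115892172) holds the gene Pelo within its borders, on the same strand and with no shared exon bases. Itga4 (chromosome 2, 79095583 to 79173271) shares exon bases with Cerkl on the opposite strand. The authors counted reads on both strands, so reads of Itga4 and Cerkl in that stretch cannot be told apart. Cerkl stood at 13.3 to 20.6 scaled FPKM over the 8 libraries, against 51.5 to 105 for Itga4.

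The libraries held 8587560 to 27036783 reads on genes, and WT at 6 h was the deepest. Arntl, the deleted gene, had 32.3 to 38.7 scaled FPKM in the WT libraries and 11.3 to 20.2 in the Arntl-/- libraries, a mean log2 ratio of -1.16. Macrophage markers were high throughout: the 9 of 10 listed symbols found in the table summed to 14190 to 35150 scaled FPKM in WT and to 15720 to 31360 in Arntl-/- cells, with none at 0. Neutrophil markers (9 of 10 in the table) summed to 531 to 928 in WT and to 865 to 1033 in Arntl-/- cells, with Mpo at 0 in every library and S100a9 at 164, 207, 148 and 10.1 in WT and at 403, 428, 371 and 9.00 in Arntl-/- cells at 0, 6, 24 and 48 h. Stromal markers (10 of 10) summed to 512 to 1276 in WT and to 368 to 759 in Arntl-/- cells. Lymphocyte markers (6 of 6) summed to at most 4.09 in WT and 14.3 in Arntl-/- cells, with Cd3e and Cd3g at 0 in all libraries, and dendritic cell markers (7 of 7) to at most 10.1 and 11.4, with Cd209a at 0. Platelet markers (5 of 5) summed to 1478 to 2240 in WT and to 1743 to 2296 in Arntl-/- cells, nearly all of it Pf4, at 1435 to 2201. Of the others, Ppbp stood at 28.6 to 86.2, Itga2b, the platelet integrin, at 1.62 to 7.77, and Gp9 and Gp1bb at 5.57 or less. In such bulk libraries, fewer cells of a type and less RNA per cell cannot be told apart.

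Levels of the members spanned more than 2 orders of magnitude. In scaled FPKM, which is per length and divided by a size factor for each library, the median over the 8 libraries was 2403 for Itgam, 1882 for Itgb2 and 1024 for Itgb1. It was 431.5 for Itga5, 357.7 for Itgal, 206.1 for Itgav, 119.7 for Itga6 and 87.0 for Itga4. The lowest medians were 13.3 for Itgax, the CD11c subunit, and 11.2 for Itga1, the collagen-binding subunit. The order of neighbors held in 8 of 8 libraries from Itgam down to Itga6, although the ranges of Itgam and Itgb2, and those of Itga5 and Itgal, overlapped over the libraries. Itga6 was above Itga4 in 7 libraries, Itga4 above Itgax in 7, and Itgax above Itga1 in 5, and these 3 pairs of ranges also overlapped.

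**Figure D1:**
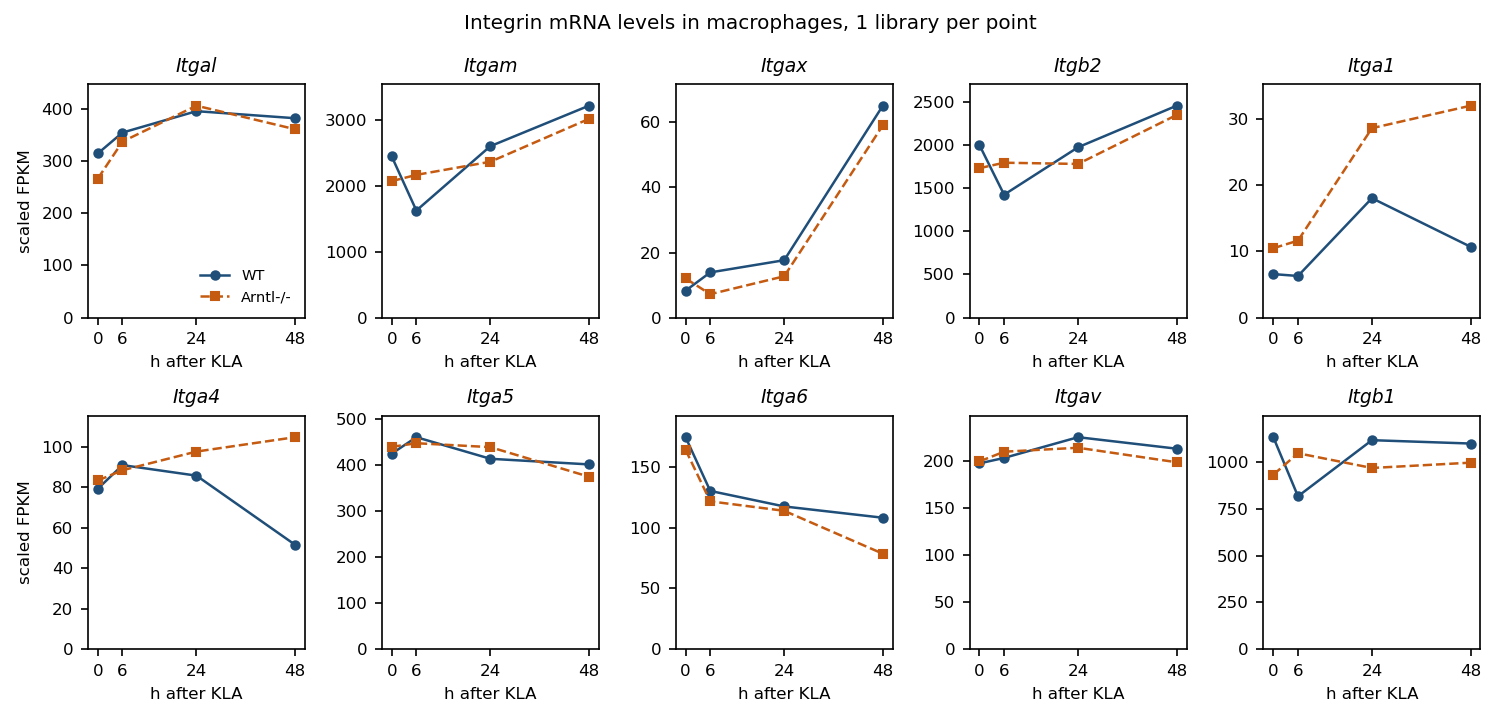
Scaled FPKM (vertical axes, from 0, a separate scale for each gene) of the 10 integrin genes against hours after KLA (horizontal axes) in WT (blue circles, solid lines) and Arntl-/- cells (orange squares, dashed lines), with 1 library per point. Itga1 is higher in Arntl-/- cells at each time, Itga4 separates at 48 h, Itgax climbs at 48 h in both genotypes, and Itgam, Itgb2 and Itgb1 dip in WT at 6 h, which did not hold with a correction for expression level.

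The genotypes were compared at each time to ask which integrin mRNAs depended on Arntl. One member stood apart. Itga1, which forms the collagen and laminin receptor with Itgb1, was at least 1.5-fold higher in Arntl-/- cells at all 4 times, as were 16 of the 10656 genes analyzed (0.15%), and no member was lower at all 4 (0.131% of genes). Itga4, the subunit that with Itgb1 binds Vcam1 and fibronectin, separated only at 48 h. Itgax was lower at 6 h, and the other 7 members were within 1.5-fold at every time.

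Itga1 had 6.58, 6.29, 18.1 and 10.7 scaled FPKM in WT cells at 0, 6, 24 and 48 h, from 83, 183, 180 and 85 reads. In Arntl-/- cells it had 10.5, 11.6, 28.6 and 32.1, from 195, 176, 427 and 245 reads. The Arntl-/- library was the higher at each time, whereas the ranges of the genotypes over all times overlapped, because the WT level at 24 h exceeded the Arntl-/- levels at 0 and 6 h. The log2 ratios were 0.67 at 0 h (95% counting interval 0.30 to 1.06), 0.88 at 6 h (0.58 to 1.19), 0.66 at 24 h (0.41 to 0.93) and 1.57 at 48 h (1.22 to 1.96). At 0, 6 and 24 h the interval reached below the 1.5-fold line, and with a correction for expression level the 0 h ratio was 0.58, under it. The mean of the 4 ratios was 0.94, and 28 of the 10656 genes had a higher one. Without the 48 h libraries the mean was 0.73. Stromal markers, whose cells also carry collagen receptors, were lower in Arntl-/- cells by their summed level, which was 368, 398, 425 and 759 in Arntl-/- cells against 512, 593, 649 and 1276 in WT at the 4 times. Within that list Dcn was at 16.8, 42.0, 29.3 and 62.3 in WT and at 39.1, 34.6, 37.0 and 91.3 in Arntl-/- cells, higher in the latter except at 6 h, and Lum was higher there except at 24 h. The part of stromal cells in the Itga1 ratio was not tested. Pelo, the gene inside Itga1, stood at 81.5, 91.9, 76.2 and 59.8 in WT and at 73.5, 87.6, 67.7 and 58.6 in Arntl-/- cells.

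At 0, 6, 24 and 48 h, WT cells had 79.2, 90.9, 85.7 and 51.5 scaled FPKM of Itga4, and Arntl-/- cells had 83.3, 88.4, 97.6 and 105. The values lay close together up to 24 h, with log2 ratios of 0.07, -0.04 and 0.19, and at 48 h the lowest level of the series in WT met the highest in Arntl-/- cells. That ratio was 1.02 (0.89 to 1.16), a 2.03-fold difference from 674 and 1318 reads. The mean over the 4 times was 0.31, and 0.07 without the 48 h libraries. Cerkl, the antisense neighbor, was at 19.8 in WT and 13.4 in Arntl-/- cells at 48 h. The part of the shared exon bases in the Itga4 ratio was not tested.

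Itgax, which encodes the CD11c subunit of complement receptor type 4, had 8.27, 13.9, 17.6 and 65.1 scaled FPKM in WT at the 4 times, and Arntl-/- cells had 12.0, 7.20, 12.7 and 59.1. The order of the genotypes turned between 0 and 6 h. The log2 ratio was 0.54 at 0 h (0.12 to 0.97), -0.94 at 6 h (-1.34 to -0.57), -0.47 at 24 h (-0.85 to -0.10) and -0.14 at 48 h (-0.37 to 0.09). Only the 6 h ratio was past 1.5-fold, from 271 reads in WT and 73 in Arntl-/- cells, and its interval reached above the line.

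The abundant beta2 and beta1 chains had like patterns. Itgam, the CD11b subunit of complement receptor type 3, had 2444, 1623, 2599 and 3213 scaled FPKM in WT and 2069, 2164, 2363 and 3013 in Arntl-/- cells. Itgb2, its partner, had 1996, 1422, 1971 and 2452 in WT and 1729, 1792, 1778 and 2345 in Arntl-/- cells. Itgb1, the common beta chain of the matrix receptors, had 1135, 819, 1119 and 1101 in WT and 934, 1049, 970 and 999 in Arntl-/- cells. Each was below WT in the Arntl-/- library at 0, 24 and 48 h and above it at 6 h, the time at which the WT level was lowest. The 6 h log2 ratios were 0.41 for Itgam, 0.36 for Itgb1 and 0.33 for Itgb2, short of 1.5-fold. Neutrophils carry the same beta2 chains, and their markers summed to 531, 548, 624 and 928 in WT and to 952, 1033, 865 and 943 in Arntl-/- cells at 0, 6, 24 and 48 h, whose part in these ratios was not tested. At 48 h that sum was nearly all S100a8, at 910.3 in WT and 905.3 in Arntl-/- cells, whereas S100a9, Ngp and Ltf stood at 10.1, 0 and 0 in WT and at 9.00, 2.70 and 0 in Arntl-/- cells.

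The libraries differed for abundant genes in general, WT at 6 h the furthest. The 1065 most highly expressed genes, which include Itgam, Itgb1 and Itgb2, lay there at a median of -0.35 log2 units from the 8-library mean, and the least expressed group of like size lay at 0.12. For the same abundant genes the median was 0.29 in WT at 48 h, 0.24 in Arntl-/- cells at 48 h and -0.19 in Arntl-/- cells at 0 h, and within 0.10 of 0 in the other 4 libraries. WT at 6 h was also the library with the most reads per exon base, at 7.93 for Itgam, 6.95 for Itgb2 and 4.00 for Itgb1, and the authors' setting kept at most 3 tags per position. The part of that setting in the 6 h values was not tested. With each library corrected for its trend with expression level, the 6 h genotype ratios were -0.13 for Itgam, -0.02 for Itgb1 and -0.17 for Itgb2, so their direction did not hold. The corrected 0 h ratios were 0.08, -0.08 and 0.08 for Itgam, Itgb1 and Itgb2, and the 24 h ratios were 0.12, -0.04 and 0.09, so those of Itgam and Itgb2 turned sign as well. At 48 h they were -0.0089 for Itgam, -0.09 for Itgb1 and 0.0089 for Itgb2, so that of Itgb2 turned sign there too.

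Itgal, the LFA-1 subunit that binds Icam1, had 314.5, 354.5, 395.5 and 382 scaled FPKM in WT and 266, 337, 406 and 361 in Arntl-/- cells, and its ratios lay between -0.24 and 0.04. Itga6, a laminin receptor subunit, had 175, 130, 118 and 108 in WT and 164, 122, 114 and 78.6 in Arntl-/- cells. Its ratio was below 0 at every time and furthest at 48 h, at -0.46 (-0.62 to -0.31), which is short of 1.5-fold. Itga5, the fibronectin receptor subunit, had 424, 460, 413 and 401 in WT and 439, 447, 439 and 374 in Arntl-/- cells, and Itgav had 197, 203, 225 and 213 in WT and 199, 209, 214 and 198 in Arntl-/- cells. These last 2 were the members with the narrowest spread, with the highest library 1.23 and 1.14 times the lowest.

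**Figure D2:**
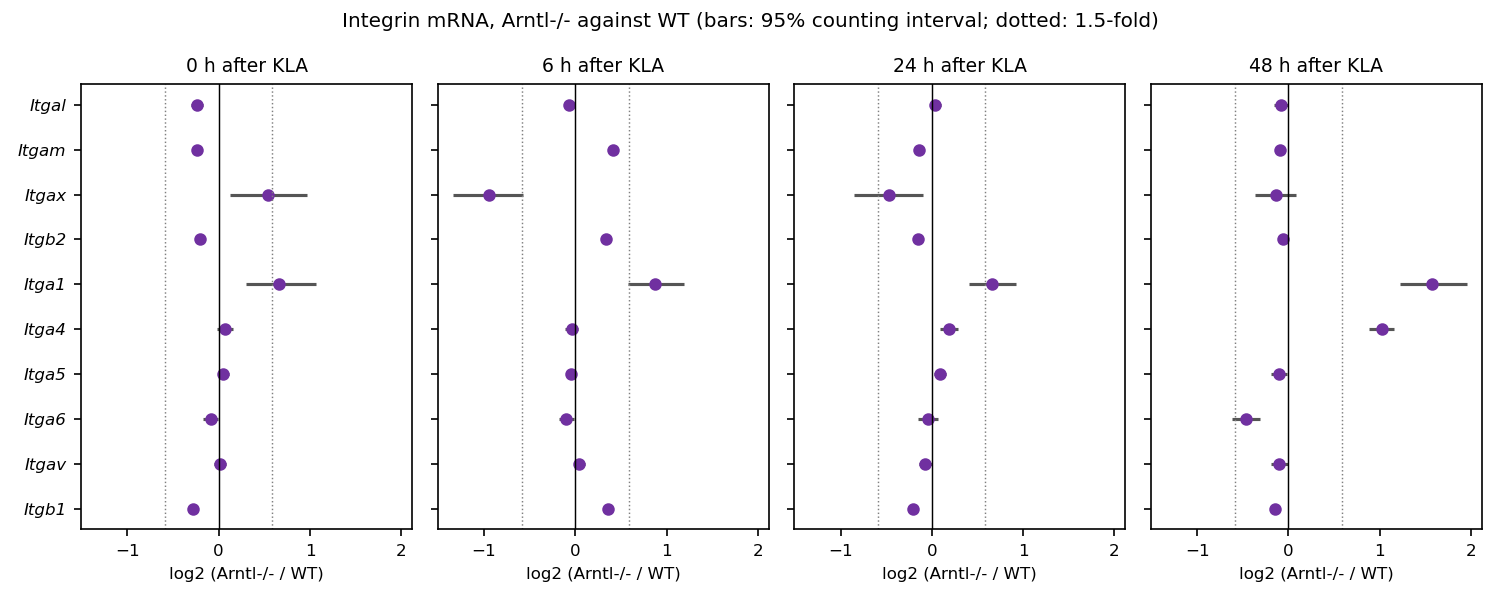
Log2 ratio of Arntl-/- to WT scaled FPKM (horizontal axes) for the 10 integrin genes (vertical axis) at 0, 6, 24 and 48 h after KLA, with points for the ratios, bars for the 95% counting intervals and dotted lines at 1.5-fold. Itga1 lies beyond the upper line at all 4 times (0.67, 0.88, 0.66 and 1.57), Itga4 does so at 48 h (1.02), and Itgax lies beyond the lower line at 6 h (-0.94).

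Counted against the 1.5-fold line, 1 of 10 members exceeded its WT level at 0 h (3.58% of all genes) and 0 were lower (2.06%). At 6 h 1 was higher (2.27%) and 1 lower (2.75%). At 24 h 1 was higher (4.07%) and 0 were lower (3.22%), and at 48 h 2 were higher (6.59%) and 0 were lower (5.88%). The counts at 0, 6 and 24 h in the higher direction are the single gene Itga1. The median log2 ratio of the 10 members was -0.04, 0.00, -0.06 and -0.10 at 0, 6, 24 and 48 h, and that of all genes was within 0.02 of 0 at each time. With the correction for expression level the members' medians were 0.06, -0.10, 0.07 and -0.06, so their sign did not hold at 0, 6 and 24 h. No member had WT and Arntl-/- libraries that did not overlap over the 4 times, and 1.35% of all genes did. The split of all genes depends on the scaling: for the values as deposited, without size factors, 5% of genes were higher and 1.42% lower at 0 h, and 0.835% were higher and 5.11% lower at 6 h. With the correction for expression level, 1.95% were higher and 1.56% lower at 6 h.

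The second question was how the members responded to KLA within each genotype. By 48 h Itgax and Itga1 were past 1.5-fold above their 0 h level in both genotypes and Itga6 was past 1.5-fold below it, whereas the abundant subunits mostly stayed within 1.5-fold. The 3 comparisons of a genotype share its 0 h library.

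Itgax had the highest change of the members at 48 h. Its log2 change from 0 h in WT cells was 0.74 at 6 h (0.36 to 1.15), 1.08 at 24 h (0.66 to 1.54) and 2.96 at 48 h (2.60 to 3.37), a 7.80-fold increase from 70 to 347 reads. In Arntl-/- cells it was -0.73 at 6 h (-1.17 to -0.33), 0.08 at 24 h (-0.27 to 0.43) and 2.29 at 48 h (2.01 to 2.59), a 4.88-fold increase. Of all genes, 0.516% moved as far in WT at 48 h and 1.58% did in Arntl-/- cells. The change at 6 h differed in sign between the genotypes, by -1.48 on the log2 scale, and 0.62% of genes differed as far. Zbtb46, Cd209a, Clec9a, Siglech, Xcr1 and Flt3, which mark dendritic cells, another cell type known for CD11c, stood at 1.88 or less in every library, and Ccr7, the other marker of that list, at 2.28 to 8.79.

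Itga1 rose 2.72-fold in WT and 2.71-fold in Arntl-/- cells by 24 h, log2 changes of 1.44 in both. By 48 h the change was 0.69 in WT (0.25 to 1.16) and 1.60 in Arntl-/- cells (1.33 to 1.89), so the level came down in WT from 18.1 to 10.7 and stood at 32.1 in Arntl-/- cells. The difference between these 48 h changes was 0.91, and 6.78% of genes differed at least as far. For Itga4 it was 0.95 (6.20% of genes), from a change of -0.62 in WT (-0.75 to -0.49), past 1.5-fold, and of 0.33 in Arntl-/- cells, which was not. Neither WT change at 48 h was past the line in every setting: that of Itga1 was 0.56 for the values as deposited, and that of Itga4 was -0.51 with a correction for gene length.

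Itga6 fell in both genotypes. Its log2 change in WT was -0.42 at 6 h, -0.57 at 24 h and -0.69 at 48 h, and the Arntl-/- values were -0.43, -0.53 and -1.06. The decrease passed 1.5-fold at 48 h in both, where it was 1.61-fold in WT and 2.09-fold in Arntl-/- cells.

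Itgal was higher than at 0 h at each later time, with log2 changes of 0.17, 0.33 and 0.28 in WT and of 0.34, 0.61 and 0.44 in Arntl-/- cells, and only the 24 h value in Arntl-/- cells, 1.52-fold, was past the line. It was 0.54 both for the values as deposited and with the correction for expression level, short of the line. Itgam changed by -0.59 at 6 h in WT (-0.61 to -0.57), which is 1.51-fold and just past the line, and by 0.09 and 0.39 at 24 and 48 h. In Arntl-/- cells its changes were 0.06, 0.19 and 0.54. Itgb2 had changes of -0.49, -0.02 and 0.30 in WT and of 0.05, 0.04 and 0.44 in Arntl-/- cells, and Itgb1 of -0.47, -0.02 and -0.04 in WT and of 0.17, 0.05 and 0.10 in Arntl-/- cells. The 6 h values of these 3 in WT depend on the treatment of abundant genes described above. With the correction for expression level they were 9.17e-05 for Itgam, 0.05 for Itgb2 and -0.09 for Itgb1. The 48 h values of Itgam and Itgb2 also turned sign with it, to -0.14 and -0.18 in WT and to -0.23 and -0.26 in Arntl-/- cells, and that of Itgb1 did in Arntl-/- cells, to -0.39. In Arntl-/- cells the 6 and 24 h values of all 3 turned below 0 too, to -0.21 and -0.03 for Itgam, -0.20 and -0.16 for Itgb2 and -0.03 and -0.10 for Itgb1, and the WT value of Itgam at 24 h turned to -0.07. Itga5 and Itgav stayed between -0.23 and 0.19 at all times in both genotypes. With the correction for expression level Itga5 went beyond this range, to 0.27 in WT at 6 h and to -0.42 in Arntl-/- cells at 48 h.

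**Figure D3:**
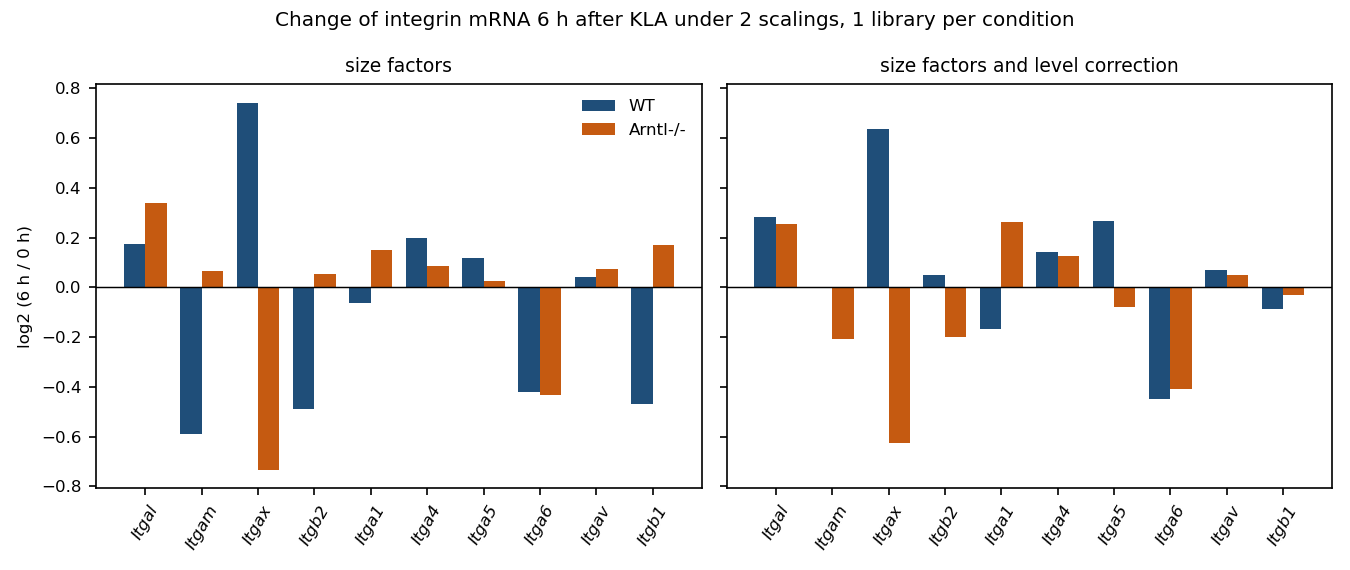
Log2 change at 6 h after KLA relative to 0 h (vertical axes) for the 10 integrin genes in WT (blue) and Arntl-/- cells (orange), with size factors alone (left) and with size factors plus a correction for expression level (right), 1 library per condition. The WT decrease of Itgam, Itgb2 and Itgb1 (-0.59, -0.49 and -0.47) is near 0 on the right, whereas Itgax keeps opposite signs in the genotypes in both panels.

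In WT, 1 of 10 members was past 1.5-fold higher at 6 h (5.66% of all genes) and 1 lower (3.62%), 2 were higher at 24 h (8.84%) and 0 lower (8.92%), and 2 were higher at 48 h (13.6%) and 2 lower (15.3%). In Arntl-/- cells 0 were higher at 6 h (3.38%) and 1 was lower (3.59%), 2 were higher at 24 h (8%) and 0 lower (9.69%), and 2 were higher at 48 h (15.8%) and 1 lower (17.3%). The median change of the members at 48 h was 0.20 in WT and 0.38 in Arntl-/- cells, beside 0.00 and -0.01 over all genes. With the correction for expression level the members' medians were -0.16 and -0.11, so their sign did not hold. For the values as deposited, the shares of all genes higher and lower were 10.2% and 1.11% in WT at 6 h, 9.92% and 20.4% in WT at 48 h, 2.63% and 4.81% in Arntl-/- cells at 6 h, 6.56% and 11.4% there at 24 h, and 10.6% and 24.2% there at 48 h.

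The makeup of the alpha subunit mRNA was then set against each beta chain. Among Itgal, Itgam, Itgax and Itgad, the partners of Itgb2, Itgam made up 81.5% to 88.3% of the summed FPKM, Itgal 10.4% to 17.8%, and Itgad at most 0.0202%. At 0, 6, 24 and 48 h Itgax took 0.299%, 0.698%, 0.586% and 1.78% in WT, and 0.512%, 0.287%, 0.456% and 1.72% in Arntl-/- cells, so it was a small share even at its highest. The summed level of these alpha subunits was 1.36 to 1.56 times that of Itgb2.

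Among the members that join Itgb1, Itga5 made up 47.5% to 51.7%, Itgav 22.2% to 27.1%, Itga6 9.98% to 19.8%, Itga4 6.57% to 13.3% and Itga1 0.707% to 4.07%. Itgav also joins Itgb3 and Itgb5, and Itga4 joins Itgb7, so their shares are upper ones for Itgb1. From 0 to 48 h the WT share of Itga6 went from 19.8% to 13.8%, and the Arntl-/- share from 18.3% to 9.98%. At 48 h Itga4 and Itga1 took 6.57% and 1.36% in WT and 13.3% and 4.07% in Arntl-/- cells. Within this sum of members, Itga5, the fibronectin receptor subunit, was thus near 50% in every library, and the shares of Itga6, Itga4 and Itga1 spanned wider ratios. Alpha subunits outside the members were left out of the sum, such as Itga8 at 56.6 and Itga9 at 45.7 scaled FPKM in WT at 0 h.

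**Figure D4:**
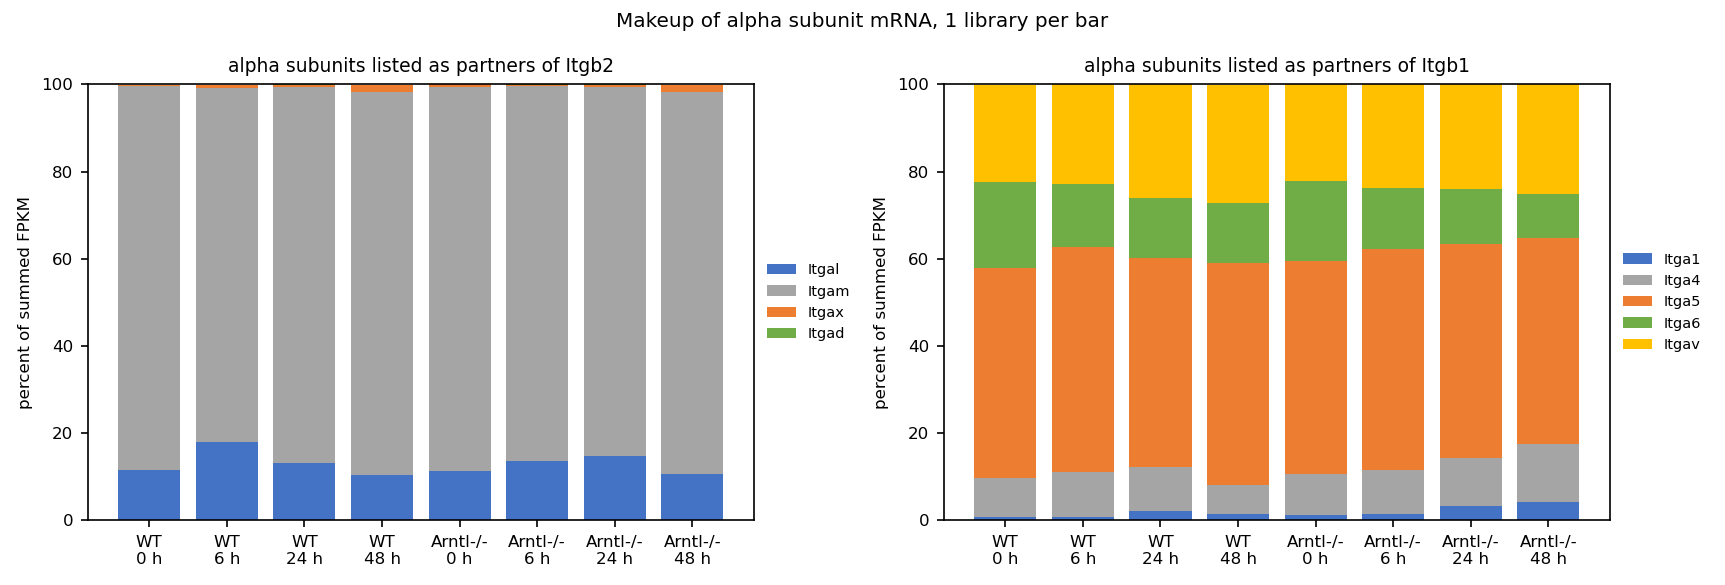
Percent of the summed scaled FPKM of alpha subunits (vertical axes) taken by each partner of Itgb2 (left) and each member that joins Itgb1 (right) in the 8 libraries (horizontal axes), 1 library per bar. Itgam fills 81.5% to 88.3% of each left bar, and in the right bars Itga5 stays between 47.5% and 51.7% while Itga6 is narrower after 0 h than at 0 h.

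The genes most like each member over the 8 libraries were found by Pearson's r of log2 scaled FPKM. These values describe 8 points that share library depth, and they carry no p. Itgb2 was most like C3ar1, the receptor for complement fragment C3a (r = 0.995), and Cdc42, a GTPase of the cytoskeleton (0.994). Itga6 was most like Hells, a helicase of dividing cells (0.989), and Gm6377 (0.988). Itgax was most like Dennd2a (0.986) and Ephx1 (0.981), and Itga1 like Znrf1 (0.977) and Rnf166 (0.969). For Itgam these were Morf4l1 (0.992) and Arrb2 (0.990), for Itgb1 Pitpna (0.991) and Hnrnpu (0.983), and for Itgal Il13ra1 (0.980). Itga4 was most like Ntpcr (0.971) and Smug1 (0.963), Itga5 like Wrap73 (0.986) and Ppp1r8 (0.984), and Itgav like Hsdl1 (0.962) and Fam53b (0.943). Among the members themselves the highest r was 0.983, between Itgam and Itgb2, which encode the chains of complement receptor type 3. Both are among the abundant genes that shifted together between libraries, as described above. All r values were taken without the correction for expression level, and the part of such shifts in them was not tested.

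The partners of the members among the other integrin genes differed in pattern. Itgb3, a partner of Itgav, had 16.1, 14.1, 20.3 and 79.7 scaled FPKM in WT and 16.3, 9.56, 18.5 and 73.9 in Arntl-/- cells. Like Itgax it was highest at 48 h in both genotypes. Itgb5, the other main partner of Itgav, stood at 147.9 to 259.2 in all libraries, above Itgb3 at every time. Itgb7, which joins Itga4 in the receptor for gut homing, had 128, 90.7, 127 and 138 in WT and 162, 136, 185 and 165 in Arntl-/- cells, higher in the latter at each time with a mean log2 ratio of 0.43. Itga9 stood at 45.7, 35.1, 27.6 and 23.2 in WT and at 31.9, 27.5, 24.5 and 17.8 in Arntl-/- cells. Itga11, a collagen receptor of stromal cells and the lowest of the analyzed 7 by mean ratio (-0.85), had 5.58, 4.84, 11.1 and 12.2 in WT and 4.96, 5.62, 3.09 and 3.81 in Arntl-/- cells. Of these 7, 1, 0, 1 and 0 were past 1.5-fold higher in Arntl-/- cells at 0, 6, 24 and 48 h, beside 3.58%, 2.27%, 4.07% and 6.59% of all genes, and 0, 0, 1 and 1 were lower, beside 2.06%, 2.75%, 3.22% and 5.88%.

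Of the genes for integrin activation and adaptors, 36 of 40 were analyzed. Of these 36, 0, 0, 0 and 1 were past 1.5-fold higher in Arntl-/- cells at 0, 6, 24 and 48 h and 0, 1, 0 and 1 were lower, where most genes of the table also lay within 1.5-fold (3.58%, 2.27%, 4.07% and 6.59% of all genes higher and 2.06%, 2.75%, 3.22% and 5.88% lower). Tln1, the talin that switches integrins on, was at 625.4 to 834.2 in all libraries, and Fermt3, the kindlin of blood cells, at 856.4 to 1046. Ptk2, the focal adhesion kinase, had the lowest mean ratio of the list (-0.60), with 39.1, 39.0, 40.9 and 58.5 in WT and 36.3, 22.7, 28.4 and 29.7 in Arntl-/- cells, and Parvg, a parvin, had the highest (0.34).

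Among integrin ligands, 18 of 22 analyzed, 12 had risen past 1.5-fold by 48 h in WT and 9 in Arntl-/- cells, and none had fallen, beside 13.6% and 15.8% of all genes higher and 15.3% and 17.3% lower. Of the 7 stromal markers analyzed, 5 had risen in WT and 6 in Arntl-/- cells by then, with medians of 1.22 and 1.07. Between the genotypes, 1, 1, 0 and 1 of the 18 ligands were higher in Arntl-/- cells at 0, 6, 24 and 48 h, beside 3.58%, 2.27%, 4.07% and 6.59% of all genes, and 1, 2, 3 and 5 were lower, beside 2.06%, 2.75%, 3.22% and 5.88%. Stromal markers were lower beside them: of the 7 analyzed, 4, 3, 3 and 5 were past 1.5-fold lower at these times, with a median log2 ratio of -0.86 at 48 h, and Col1a1 is in both lists. Their part in the ligand counts was not tested. Thbs1, which encodes thrombospondin and had the highest mean ratio of the list (0.65), was at 254, 279, 1315 and 638 in WT and at 422, 478, 1368 and 1313 in Arntl-/- cells. Icam1, the counter-receptor of the beta2 integrins, rose to its highest level at 24 h in both genotypes, 739.6 and 710.5, with a mean ratio of 0.02. Spp1, which encodes the Itgav ligand osteopontin, was the most abundant ligand named here, at 3224 to 8612. Vcam1, the ligand of Itga4, stood at 5.29 to 19.8, Fn1, the ligand of Itga5, at 48.1 to 111.9, and Nid1, a basement membrane protein with the lowest mean ratio (-1.27), at 1.72 to 12.9.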

How the data were processed

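PolyA RNA was sequenced in 8 libraries of BMDMs, 1 for each of 2 genotypes at 4 times. The authors used STAR to map read pairs to mm9, counted tags on the exons of RefSeq genes with HOMER on both strands with at most 3 tags per position, and deposited FPKM scaled to 10000000 reads per library. The deposited FPKM table held 4 value columns of other times that belong to no sample and 1 fragment line, and none of these was used. The ChIP-seq samples were not analysed here.

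The product of FPKM and exon length was a whole number of reads once divided by what 1 read is worth (within 0.1 reads for 100% of low values, up to 40 reads), which gave the reads behind each value. Depth ranged from 8587560 to 27036783 reads. Libraries were brought to a common scale with size factors (median of ratios), and log2 ratios used a pseudocount of 0.1, which understates changes of low genes. A difference was counted past 1.5-fold. The 95% intervals are exact binomial intervals of the read ratio and cover counting error only. With 1 library per condition no test was made. Genes named are the 10 members, Arntl, listed partners, activators and ligands, the highest and lowest mean ratio of each pathway list and the 2 genes most like each member, of which 1 is not reported here, and beside them genes that overlap a member and markers of other cell types, those singled out being chosen after their values were seen. The members and lists were chosen with earlier results of these data known. Values of other scalings, pseudocounts, filters, folds and corrections for length and level (lowess, fraction 0.3) were computed. Promoters were read from the mm9 (NCBIM37) genome at the starts in the table, and overlapping genes from GENCODE vM1. The steps were tested on simulated data. The software was scipy 1.17.1, statsmodels 0.14.6, pandas 2.3.3, numpy 2.4.6 and matplotlib 3.10.9 under Python 3.11.15.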

Additional observations from a re-analysis of the deposited data

Results flagged for a closer look

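Itgax moved in opposite directions at 6 h after KLA in the genotypes: its level went from 8.27 to 13.9 scaled FPKM in WT, from 70 and 271 reads, and from 12.0 to 7.20 in Arntl-/- cells, from 150 and 73 reads. The change in Arntl-/- cells minus that in WT was -1.48 on the log2 scale. It is listed because the 2 genotypes moved opposite ways, with 1 library each, and the difference was not tested.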

How the results depend on the processing

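Of the 20 member values past 1.5-fold, 15 stayed past it under every scaling, pseudocount, filter and correction tried. The other 5 were Itga1 between the genotypes at 0 h (lowest 0.58), Itgam in WT at 6 h, Itga1 and Itga4 in WT at 48 h (0.56 and -0.51 nearest to 0) and Itgal in Arntl-/- cells at 24 h (0.54). With the correction for expression level, the change of Itgam in WT at 6 h went from -0.59 to 9.17e-05, the only value past the line whose sign turned. Leaving the deep WT 6 h library out of the size factors, chosen after seeing the data, changed no count of members by over 1.5 times. For the values as deposited, the all-gene median shifted to 0.13 in WT at 6 h, -0.13 in WT at 48 h and -0.18 in Arntl-/- cells at 48 h.

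The counts of members that changed by over 1.5 times were as follows, and 4 other counts went from 2 to 3 members. For the values as deposited, 2 were higher in Arntl-/- cells at 0 h, 0 were lower in WT at 6 h, 1 was lower in WT at 24 h, 1 was higher in WT at 48 h, and at 24 h the Arntl-/- cells had 1 higher and 1 lower. With upper-quartile scaling, and also with the correction for gene length, 1 was lower in WT at 48 h. With the correction for expression level, 0 were higher in Arntl-/- cells at 0 h and 0 at all 4 times, 0 were lower in WT at 6 h, 1 was lower in WT at 48 h and 1 was higher in Arntl-/- cells at 24 h. With the line midway between 1 and 1.5-fold, 2 were higher in Arntl-/- cells at 0 h, 4 were higher at 6 h, and 1 was lower at 24 h and at 48 h. At that size 4 were lower in WT at 6 h and 1 at 24 h, and in Arntl-/- cells 1 was higher and 2 lower at 6 h, 1 lower at 24 h and 6 higher at 48 h. At 2-fold, 0 were higher in Arntl-/- cells at 0, 6 and 24 h and 0 lower at 6 h, 0 were higher or lower in WT at 6 h, 1 was higher and 0 lower in WT at 48 h, and in Arntl-/- cells 0 were lower at 6 h and 1 was higher at 24 h. Per read rather than per length, the share of Itga5 among the members that join Itgb1 was 34.6% to 39.2% and not 47.5% to 51.7%.

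The mean ratios pair the libraries by time, and these pairs were given no test, since whether the times of a genotype are separate cultures is not stated. Counting error limits Itga1 and Itgax most, at 70 to 427 reads per library, and the 48 h libraries had the fewest reads.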
